A study of Mus musculus with 4 samples.

Results

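The genes described here encode enzymes that make prostaglandins, thromboxane and leukotrienes from arachidonic acid, together with 1 enzyme of steroid breakdown, in mouse RAW 264.7 cells, a macrophage-like line that forms osteoclasts when given RANKL and M-CSF. The list names 10 genes: Ptgs1, Ptgs2, Ptges, Hpgds and Tbxas1 of the prostanoid branch, Alox5, Alox5ap, Lta4h and Ltc4s of the leukotriene branch, and Akr1c18. Of these, 9 had a probe set annotated with 1 gene symbol, and Ptgs1 was not analysed here. The platform held 19938 genes with such a probe set, and 13545 of them were above background on at least 1 array. Background here means a log2 level of 4.25, the floor, under which lay 95% of the values of 1210 probe sets for odorant and pheromone receptors, genes of sensory neurons. All 9 measured genes passed that floor on at least 1 array, and each had 1 probe set. The list was selected on the values of these same 4 arrays, because Akr1c18, Hpgds and Alox5ap differed between vectors, so the values that follow are a description and carry no test.

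Cells carried a vector expressing miR-155 or a control vector, and RNA was taken after 72 h with RANKL and M-CSF (20 ng/ml, without saying whether of each) or before it, at 0 h, from the cultures called unstimulated here. The 4 groups were miR-155 cells with stimulation, miR-155 cells without, control cells with stimulation and control cells without, and each group was 1 culture on 1 Affymetrix Mouse Gene 1.0 ST array. The series text calls the control cells wild-type, whereas the sample descriptions name a control vector. No difference between arrays therefore has a replicate check, and vector, culture and array cannot be told apart. Nor can stimulation and 72 h of further culture, since there was no unstimulated culture at 72 h among these samples. The study asked what miR-155 does in osteoclast differentiation.

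Prostaglandin synthesis starts when a phospholipase frees arachidonic acid from membranes and the cyclooxygenases encoded by Ptgs1 and Ptgs2 turn it into the unstable prostaglandin H2, from which terminal synthases make prostaglandin E2, prostaglandin D2 or thromboxane. Leukotriene synthesis starts when 5-lipoxygenase (Alox5), fed by its membrane partner FLAP (Alox5ap), makes leukotriene A4, which the hydrolase Lta4h turns into leukotriene B4 and the synthase Ltc4s into the glutathione conjugate leukotriene C4. Macrophages make both kinds of mediator, and prostaglandin E2 and leukotrienes are known to act on bone resorption.

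The data show 3 patterns among these genes. Akr1c18 had a signal above the floor on the stimulated control array alone, and was at least 28.7-fold higher there than on each of the other 3. Alox5ap was 13.5-fold lower and Alox5 3.64-fold lower with stimulation in control cells. In miR-155 cells Alox5ap was 1.28-fold lower, less than the noise of the receptor probe sets, and Alox5 1.62-fold lower, more than it. Hpgds was 2.32-fold higher with stimulation in miR-155 cells and 2.18-fold lower in control cells. Ptges and Lta4h differed by less than the noise of the receptor probe sets in all 4 comparisons of array pairs.

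The noise reference is the difference that 95% of the receptor probe sets stayed under: 0.41 (log2) for stimulation in miR-155 cells, 0.48 for stimulation in control cells, 0.47 between the vectors with stimulation, 0.37 between them without, and 0.64 for the difference of the stimulation responses. It comes from dim signals and cannot replace replicates. Across the 13545 genes the stimulated control array stood apart, with a Pearson r of 0.908 to 0.937 with the other arrays, which reached 0.982 to 0.989 among themselves. With RANKL and M-CSF, 9 of 10 osteoclast markers were past 2-fold higher in miR-155 cells, where 1.15% of all genes were, and 10 of 10 in control cells, where 5.74% were. Of 10 macrophage markers, 0 were past 2-fold lower with stimulation in miR-155 cells (0.185% of all genes) and 7 in control cells (6.93%). Their summed log2 level was 104.0 and 106.1 in stimulated and unstimulated miR-155 cells and 77.9 and 107.8 in stimulated and unstimulated control cells. Mast cell and basophil markers, whose cells are rich in Hpgds and Ltc4s, were above the floor on all 4 arrays for 3 of 9 genes, Kit at 4.32 to 4.72, Hdc at 4.72 to 5.34 and Gata2 at 4.30 to 4.59. The other 6 (Cpa3, Ms4a2, Fcer1a, Tpsb2, Mcpt4 and Cma1) were below it on all 4. Hdc differed by -0.62 with stimulation in control cells, past the noise, and its part in the results for Hpgds and Ltc4s was not tested. Of the other marker lists, 3 to 4 of 5 platelet genes, 2 to 3 of 8 granulocyte genes and 5 of 5 fibroblast and osteoblast genes were above it on an array, none at more than 5.79. The probe set annotated to the gene of miR-155, Mir155, lay below the floor at 3.58 to 3.73 on all arrays. It does not read the mature microRNA, so the arrays do not check the vector.

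The mature strands of the microRNA that the vector expresses are shown with the seed, bases 2 to 8, in capitals, since the seed sets which messages a microRNA can pair with. Both come from RefSeq on build GRCm38.p6, where the 5p strand lies at chr16:84714143-84714165 and the 3p strand at chr16:84714182-84714202, on the plus strand.
mmu-miR-155-5p: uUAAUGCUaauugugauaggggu
mmu-miR-155-3p: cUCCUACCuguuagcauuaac

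Promoter sequences, from 250 bases before to 50 after the annotated start, were matched from RefSeq (GRCm38.p6) for 9 of the 10 listed genes. Alox5ap, also past 2-fold lower with stimulation in control cells, had none. The promoters of 4 genes that differed with stimulation in control cells are shown, with Akr1c18 and Ltc4s higher and Hpgds and Alox5 lower. Capitals mark matches to the core motif of PU.1 (GAGGAA) and, in Hpgds alone of these 4, to the Mitf motif (TCANGTGA), both searched on both strands. The regions are Akr1c18 at chr13:4150597-4150896, minus strand; Ltc4s at chr11:50238483-50238782, minus strand; Hpgds at chr6:65144681-65144980, minus strand; and Alox5 at chr6:116461129-116461428, minus strand.
Akr1c18: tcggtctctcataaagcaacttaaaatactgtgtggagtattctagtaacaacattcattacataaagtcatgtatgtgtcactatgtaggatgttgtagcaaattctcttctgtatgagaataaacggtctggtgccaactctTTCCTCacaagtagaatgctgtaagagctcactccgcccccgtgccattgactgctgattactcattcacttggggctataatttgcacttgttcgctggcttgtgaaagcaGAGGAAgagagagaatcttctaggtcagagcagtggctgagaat
Ltc4s: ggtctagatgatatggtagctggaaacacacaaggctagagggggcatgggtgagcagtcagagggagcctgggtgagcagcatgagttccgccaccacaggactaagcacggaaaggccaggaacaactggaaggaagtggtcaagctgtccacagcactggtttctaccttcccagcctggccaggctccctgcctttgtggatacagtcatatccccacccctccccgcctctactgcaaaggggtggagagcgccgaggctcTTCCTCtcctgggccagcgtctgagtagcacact
Hpgds: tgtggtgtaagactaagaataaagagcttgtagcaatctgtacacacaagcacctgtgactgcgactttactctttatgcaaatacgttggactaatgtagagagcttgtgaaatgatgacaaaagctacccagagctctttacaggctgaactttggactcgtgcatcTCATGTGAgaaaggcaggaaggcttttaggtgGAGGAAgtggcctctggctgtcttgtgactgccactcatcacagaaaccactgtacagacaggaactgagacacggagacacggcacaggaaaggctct
Alox5: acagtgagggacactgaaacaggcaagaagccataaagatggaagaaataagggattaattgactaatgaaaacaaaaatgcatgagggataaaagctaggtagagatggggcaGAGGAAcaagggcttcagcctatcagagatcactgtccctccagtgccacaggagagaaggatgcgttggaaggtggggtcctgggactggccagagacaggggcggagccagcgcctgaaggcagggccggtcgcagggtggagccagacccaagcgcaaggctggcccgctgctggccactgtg

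The PU.1 core was found in 9 of the 9 promoters, against 28.3% of the 32851 promoters of the same length in the RefSeq table. The NFAT core (GGAAAA) was found in 2 of 9, in Lta4h and Ptgs2, against 23.4% of all promoters. The AP-1 motif (TGANTCA) was found in Tbxas1 alone, against 7.81%, and the Mitf motif in Hpgds and Tbxas1, against 4.18%. Counted from the start site, the matches in Akr1c18 begin at bases -106 and 6, and in Hpgds the Mitf match begins at base -81 and the PU.1 match at base -49. The motifs are textbook cores of osteoclast and macrophage factors that were picked with the arrays' values known, the PU.1 and NFAT cores can overlap on the letters GGAA, and a match describes letters in this window, not binding. The genes with a PU.1 match include ones that were higher, lower and within noise with stimulation.

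Akr1c18 encodes the aldo-keto reductase that inactivates progesterone. Its log2 levels were 3.84 and 3.42 in stimulated and unstimulated miR-155 cells, and 9.09 and 3.51 in stimulated and unstimulated control cells. Only the stimulated control culture was above the floor. The stimulation difference in control cells is a bound, at least 4.84 (28.7-fold) higher, and so is the vector difference with stimulation, at least 28.7-fold lower in miR-155 cells. No fold is given for the other pairs, in which both values lay below the floor. With every value below the floor set to it, Akr1c18 had the lowest difference between the vectors with stimulation of all 13545 genes. For stimulation in control cells it ranked 12 from the top. The list was chosen for the vector difference of Akr1c18, so these ranks are a description only. Its 8 measured relatives of the Akr1c family (Akr1c6, Akr1c12, Akr1c13, Akr1c14, Akr1c19, Akr1c20, Akr1c21 and Akr1cl) lay below the floor on every array. The members of this family are close in sequence, and how far their probe sets can be told apart was not tested.

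**Figure D1:**
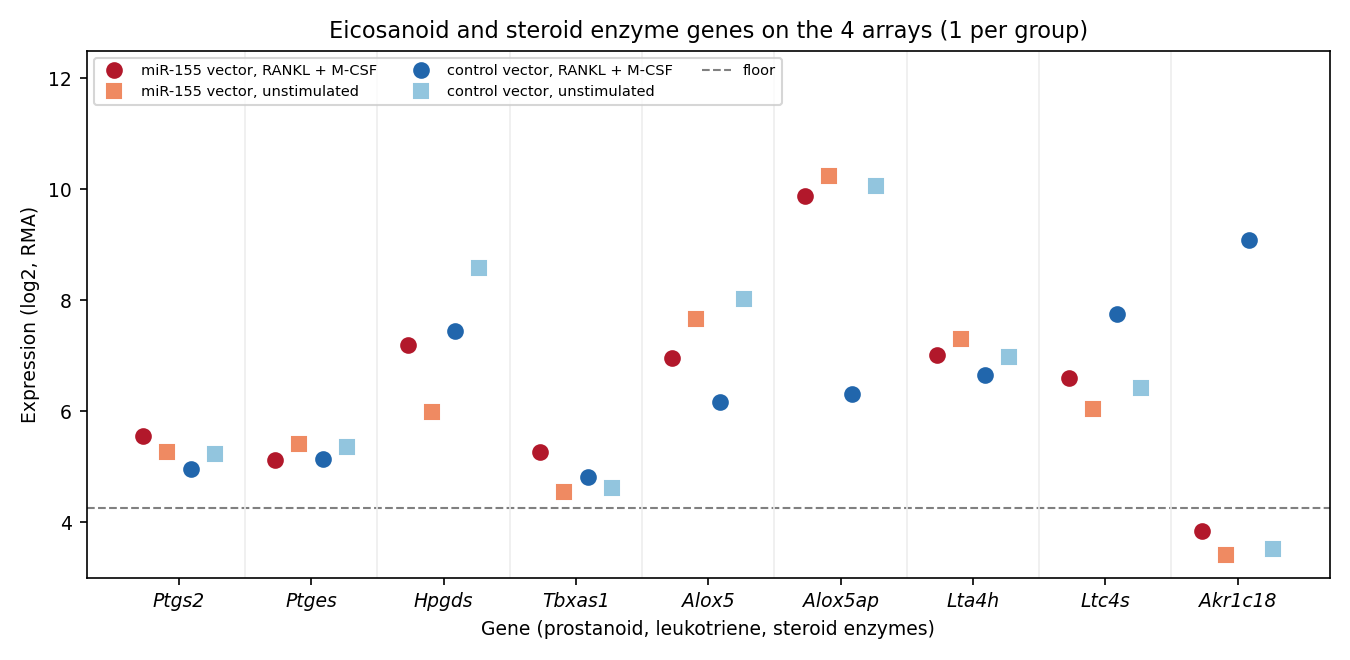
Log2 RMA expression of the 9 measured genes (x axis) on the 4 arrays, 1 point per array, with miR-155 arrays left of control arrays within each gene and stimulated arrays as circles. The dashed line is the floor of 4.25. Akr1c18 is above it on the stimulated control array at 9.09, and Alox5ap on that array is at 6.31 where the other 3 are at 9.88 to 10.2; levels of different genes come from different probe sets and are not comparable.

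Hpgds, the hematopoietic prostaglandin D synthase, is the prostanoid gene for whose difference between vectors the list was chosen. It had log2 levels of 7.19 and 5.98 in stimulated and unstimulated miR-155 cells, and 7.46 and 8.58 in stimulated and unstimulated control cells. The unstimulated arrays held both the highest and the lowest value. With stimulation Hpgds was higher by 1.21 in miR-155 cells and lower in control cells (-1.13), a difference of the responses of 2.34. Between the vectors it was lower in miR-155 cells without stimulation by 6.07-fold (-2.60), the 2nd lowest of 13545 genes. Because the list was chosen for such a difference, the rank is a description only. With stimulation the vectors differed by -0.27, inside the noise reference of 0.47.

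Ptgs2, the inducible cyclooxygenase, read 5.55 and 5.27 in stimulated and unstimulated miR-155 cells, and 4.97 and 5.24 in stimulated and unstimulated control cells. Its stimulation differences of 0.28 in miR-155 cells and -0.27 in control cells lay inside the noise reference. Between the vectors it was higher by 0.58 in miR-155 cells with stimulation, past the noise reference, and 0.03 apart without. No neighbours in the order of its 4 levels differed by more than the noise. Its stimulated control value of 4.97 lay below 5.17, the 99th percentile of the receptor values.

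Ptges, the inducible prostaglandin E synthase, read 5.13 and 5.41 in stimulated and unstimulated miR-155 cells, and 5.14 and 5.36 in stimulated and unstimulated control cells. All 4 values lay within 0.28 of each other. Tbxas1, the thromboxane synthase, read 5.27 and 4.54 in stimulated and unstimulated miR-155 cells, and 4.82 and 4.63 in stimulated and unstimulated control cells. It was 1.65-fold higher (0.72) with stimulation in miR-155 cells, with 0.19 in control cells, and the difference of these responses, 0.53, was inside the noise reference of 0.64. Both genes read near the 99th percentile of the receptor values, 5.17. Tbxas1 exceeded it on the stimulated miR-155 array alone, and Ptges on the unstimulated arrays alone. Levels this near the receptor values limit what a difference, or the lack of one, can show.

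In the leukotriene branch the entry step was lower with stimulation in control cells. Alox5ap, the partner protein FLAP that 5-lipoxygenase needs in cells, read 9.88 and 10.2 in stimulated and unstimulated miR-155 cells, and 6.31 and 10.1 in stimulated and unstimulated control cells. The stimulated control array was the low one, and the other 3 differed by less than the noise between neighbours. The stimulation difference was -0.36 in miR-155 cells and -3.75 (13.5-fold lower) in control cells, and with stimulation the gene was 11.9-fold higher (3.57) in miR-155 cells. This gap came with lower macrophage markers on the same array, 7 of 10 past 2-fold lower in control cells, and the part of those markers' change in it was not tested. On arrays of whole cultures, fewer cells of a type and less RNA per cell cannot be told apart.

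Alox5, the lipoxygenase itself, read 6.97 and 7.66 in stimulated and unstimulated miR-155 cells, and 6.17 and 8.03 in stimulated and unstimulated control cells. Both stimulated arrays were below both unstimulated ones. Stimulation differences were -0.70 in miR-155 cells and -1.86 in control cells, 1.62-fold and 3.64-fold lower, and the responses differed by 1.17. Between the vectors Alox5 was higher in miR-155 cells with stimulation (0.80) and stood at the limit of the noise without (-0.37).

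The 2 enzymes that act on leukotriene A4 followed different courses. Ltc4s, which makes leukotriene C4, read 6.61 and 6.04 in stimulated and unstimulated miR-155 cells, and 7.76 and 6.41 in stimulated and unstimulated control cells. It was higher with stimulation in both vectors, by 0.57 (1.49-fold) in miR-155 cells and 1.35 (2.54-fold) in control cells, and with stimulation it was 2.22-fold lower in miR-155 cells (-1.15). Without stimulation the vectors differed by -0.38, at the limit of the noise. Lta4h, which makes leukotriene B4, read 7.02 and 7.31 in stimulated and unstimulated miR-155 cells, and 6.65 and 6.99 in stimulated and unstimulated control cells. None of its array pairs in the comparisons differed by more than the noise.

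**Figure D2:**
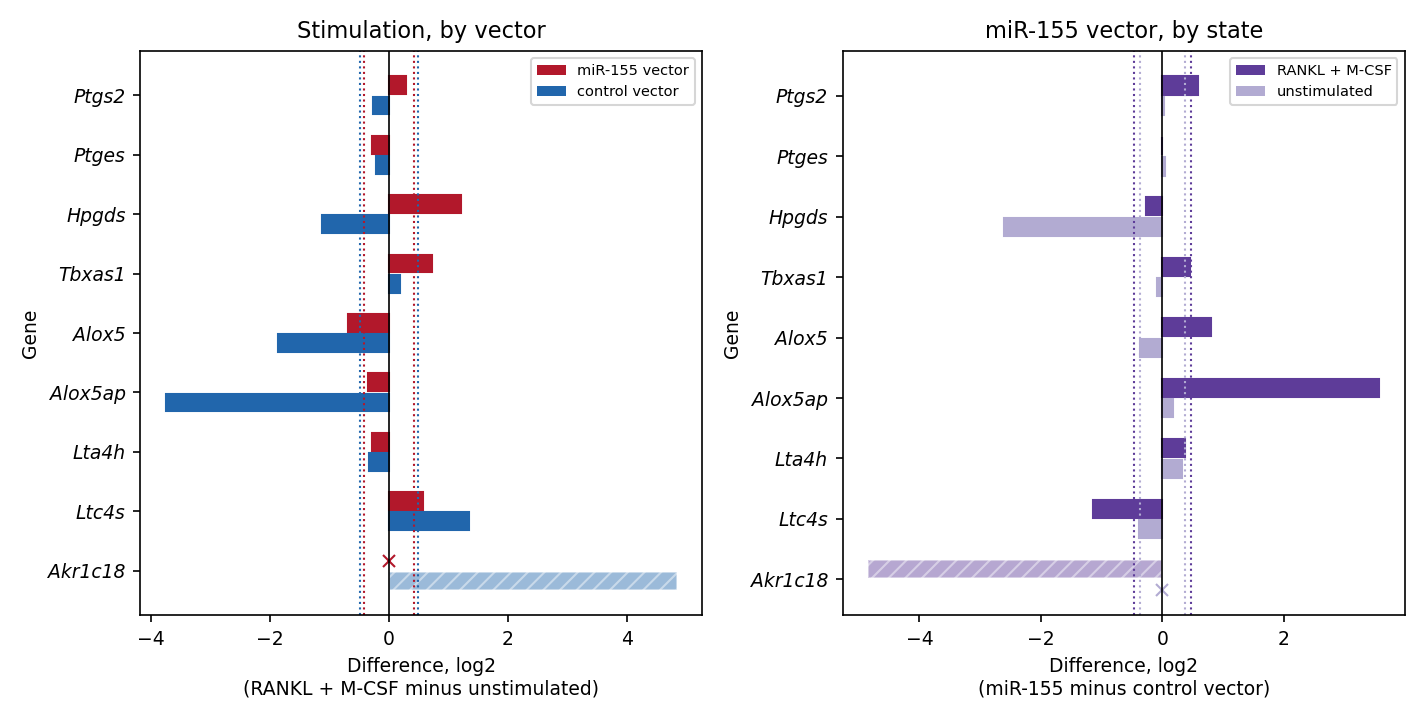
Log2 differences of the 9 genes for stimulation in each vector (left panel) and for miR-155 over control vector in each state (right panel), 1 array per group and no error bars. Hatched bars are bounds against the floor, crosses mark pairs with both values below it, and dotted lines are the noise reference of each comparison. Hpgds runs to 1.21 in miR-155 cells and -1.13 in control cells, and Alox5ap to -0.36 and -3.75.

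Counted past 2-fold, 1 of 9 genes was higher (Hpgds) and 0 were lower with stimulation in miR-155 cells, where 1.15% of the 13545 genes were higher and 0.185% lower. In control cells 2 of 9 were higher (Akr1c18 and Ltc4s) and 3 lower (Hpgds, Alox5 and Alox5ap), where 5.74% of all genes were higher and 6.93% lower. With stimulation 1 of 9 was higher in miR-155 than in control cells (Alox5ap) and 2 were lower (Akr1c18 and Ltc4s), against 5.6% and 5.56% of all genes. Without stimulation 0 were higher and 1 was lower (Hpgds), against 0.0664% and 0.546%. For the difference of the responses, miR-155 minus control, 3 were past 2-fold higher (Hpgds, Alox5 and Alox5ap) and 1 lower (Akr1c18), against 6.64% and 4.64%. The list was chosen with these contrasts known, so nothing is read from the shares. The comparisons also share arrays: the stimulated control array is on one side of both its stimulation comparison and the vector comparison with stimulation.

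**Figure D3:**
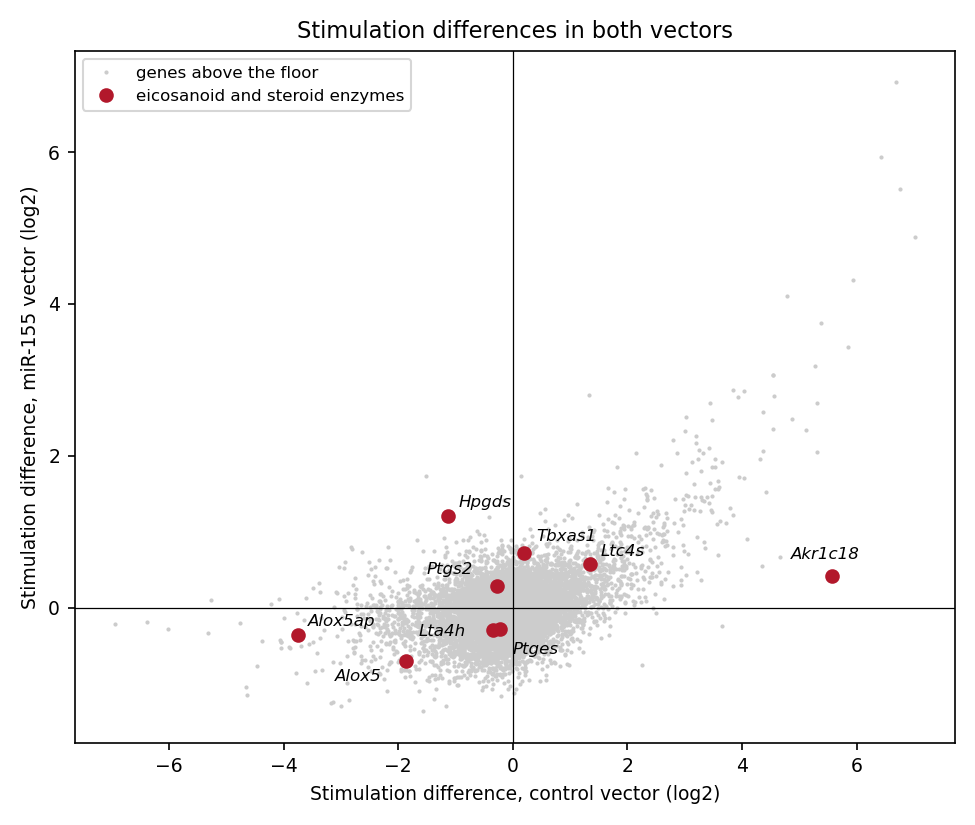
Stimulation differences (log2) in control cells (x axis) and in miR-155 cells (y axis) for 13545 genes above the floor (grey) and the 9 measured genes (red), with Akr1c18 at its values as deposited. Akr1c18 and Alox5ap lie far along the control axis and near 0 on the miR-155 axis, and Hpgds lies at -1.13 and 1.21.

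Other genes of the pathways were taken from 8 lists, of which the Akr1c family is described above. Their counts stand beside the shares of all genes past 2-fold with stimulation, which were 1.15% higher and 0.185% lower in miR-155 cells and 5.74% higher and 6.93% lower in control cells. Of 15 genes that release or recycle arachidonic acid and related lipids, 14 were measured and 12 were above the floor. With stimulation none of the 12 was past 2-fold in miR-155 cells, and 2 were higher and 2 lower in control cells (5.74% and 6.93% of all genes), with medians of 0.01 and 0.30 where all genes had -0.03 and -0.02. Pla2g4a, the cytosolic phospholipase A2 that frees arachidonic acid, read 10.2 and 10.3 in stimulated and unstimulated miR-155 cells, and 7.99 and 10.3 in stimulated and unstimulated control cells. Its stimulation differences were thus -0.07 in miR-155 cells and -2.33 (5.01-fold lower) in control cells, and like Alox5ap it was low on the stimulated control array alone. Daglb, a diacylglycerol lipase, differed by -0.56 and -1.41 in miR-155 and control cells. Faah, the hydrolase of the arachidonate amide anandamide, differed by 0.56 and 1.21, and the secreted phospholipase Pla2g2d by 0.32 and 1.02.

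Of 13 other prostanoid synthases, degrading enzymes and transporters, 11 were measured and 10 were above the floor. With stimulation 0 of them were past 2-fold in miR-155 cells, and 0 were higher and 2 lower in control cells (5.74% and 6.93% of all genes), with medians of 0.06 and 0.09. Abcc4, a pump that exports prostaglandins, differed by -0.38 in miR-155 cells and -1.74 in control cells. Ptges3, a cytosolic prostaglandin E synthase that is also the Hsp90 co-chaperone p23, has 3 probe sets, and the brightest differed by -0.11 and -1.14. The other 2 differed by -0.10 and 0.05 in miR-155 cells and by -1.05 and -0.53 in control cells, and with the mean of all probe sets 1 gene of the list, not 2, was past 2-fold lower in control cells. Hpgd, which inactivates prostaglandins, lay above the floor on the stimulated miR-155 array alone, at 4.45, and at least 0.20 above stimulated control cells. The unstimulated miR-155 array was just under the floor, at 4.246, and the miR-155 arrays differed by less than the noise. Stimulated and unstimulated control cells read 3.29 and 3.55. None of the 6 of 9 prostanoid receptor genes above the floor was past 2-fold in any of the 4 comparisons of array pairs. Of all genes, 0.0664% to 6.93% were past 2-fold in a given direction of these comparisons.

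Of 13 genes of leukotriene metabolism and reception, 11 were measured and 7 were above the floor. With stimulation 0 of these were past 2-fold in miR-155 cells, and 1 was higher and 2 lower in control cells (5.74% and 6.93% of all genes), with medians of 0.07 and 0.01. Cysltr1, a receptor for the cysteinyl leukotrienes, read 7.71 and 7.19 in stimulated and unstimulated miR-155 cells, and 4.63 and 7.58 in stimulated and unstimulated control cells. It was higher by 0.53 with stimulation in miR-155 cells, 7.75-fold lower (-2.95) in control cells, and 8.49-fold higher (3.09) in miR-155 than in control cells with stimulation. Dpep2, a dipeptidase that converts leukotriene D4 to leukotriene E4, differed by -0.60 in miR-155 cells and -2.78 in control cells. Its other probe set differed by 0.16 and, as deposited, -1.38, with the stimulated control value, 4.23, just below the floor. Mgst3, a microsomal glutathione transferase of the same protein family as Ltc4s, Alox5ap and Ptges, differed by 0.08 and 1.20. With stimulation in control cells, Alox5, Alox5ap, Dpep2, Cysltr1 and, from the release list, Pla2g4a were thus past 2-fold lower (6.93% of all genes). Ltc4s and Mgst3 were past 2-fold higher (5.74%). The release list was mixed: Daglb (-1.41) was also past 2-fold lower, and Faah (1.21) and Pla2g2d (1.02) were past 2-fold higher. The genes come from several lists and were named with their values known, so nothing is read from the shares. Inside the noise were Lta4h (-0.34), Mgst2 (-0.05), Abcc1 (0.22) and Dpep3 (0.01). Cyp4f18 lay above the floor on the stimulated control array alone, at 4.32.

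Of 8 other lipoxygenase and epoxide hydrolase genes, all measured and 4 above the floor, Ephx1 alone was past 2-fold in any of the 4 comparisons of array pairs. This microsomal epoxide hydrolase read 6.40 and 6.65 in stimulated and unstimulated miR-155 cells, and 7.02 and 8.01 in stimulated and unstimulated control cells. Without stimulation it was 2.57-fold lower (-1.36) in miR-155 cells, a comparison in which 0.546% of all genes were past 2-fold lower. The direction is that of Hpgds in the same comparison.

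Of 21 genes of steroid and oxysterol metabolism, 17 were measured and 12 were above the floor. With stimulation 1 of the 12 in miR-155 cells (1.15% of all genes) and 3 in control cells (5.74%) were past 2-fold higher and 0 were lower in either (0.185% and 6.93%), with medians of 0.27 and 0.59. Hsd3b7, an enzyme of bile acid synthesis that acts on oxysterols, read 7.80 and 6.45 in stimulated and unstimulated miR-155 cells, and 9.35 and 6.34 in stimulated and unstimulated control cells. It was thus 2.56-fold (1.35) higher with stimulation in miR-155 cells and 8.06-fold (3.01) higher in control cells. Hsd17b10, a mitochondrial dehydrogenase, differed by 0.94 and 1.66, and Cyp27a1, the mitochondrial sterol hydroxylase, by 0.39 and 1.03. Srd5a3, of the steroid reductase family and needed for dolichol synthesis, differed by -0.03 and 0.60, and with stimulation was just past 2-fold lower in miR-155 than in control cells.

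Hpgds is by sequence a glutathione transferase, and 15 other transferases were listed, of which 13 were measured and 9 above the floor. With stimulation 2 of the 9 in miR-155 cells (1.15% of all genes) and 3 in control cells (5.74%) were past 2-fold higher and 0 were lower in either (0.185% and 6.93%), with medians of 0.21 and 0.28. Gstt1 differed by 1.58 and 2.31 in miR-155 and control cells, and its neighbour in sequence Gstt3 by 1.10 and 1.58. Gstp1, of the abundant pi class, read 7.94 and 7.14 in stimulated and unstimulated miR-155 cells, and 10.1 and 8.25 in stimulated and unstimulated control cells. It was 4.54-fold lower (-2.18) in miR-155 cells with stimulation and 2.16-fold lower (-1.11) without, and its near-identical copy Gstp2 may share its probe set. Gstm1, named after its values were seen, differed with the signs of Hpgds: by 0.19 with stimulation in miR-155 cells, inside the noise, by -0.55 in control cells, and by -0.91 between the vectors without stimulation. Its difference of the responses was 0.74, past the noise reference of 0.64.

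**Figure D4:**
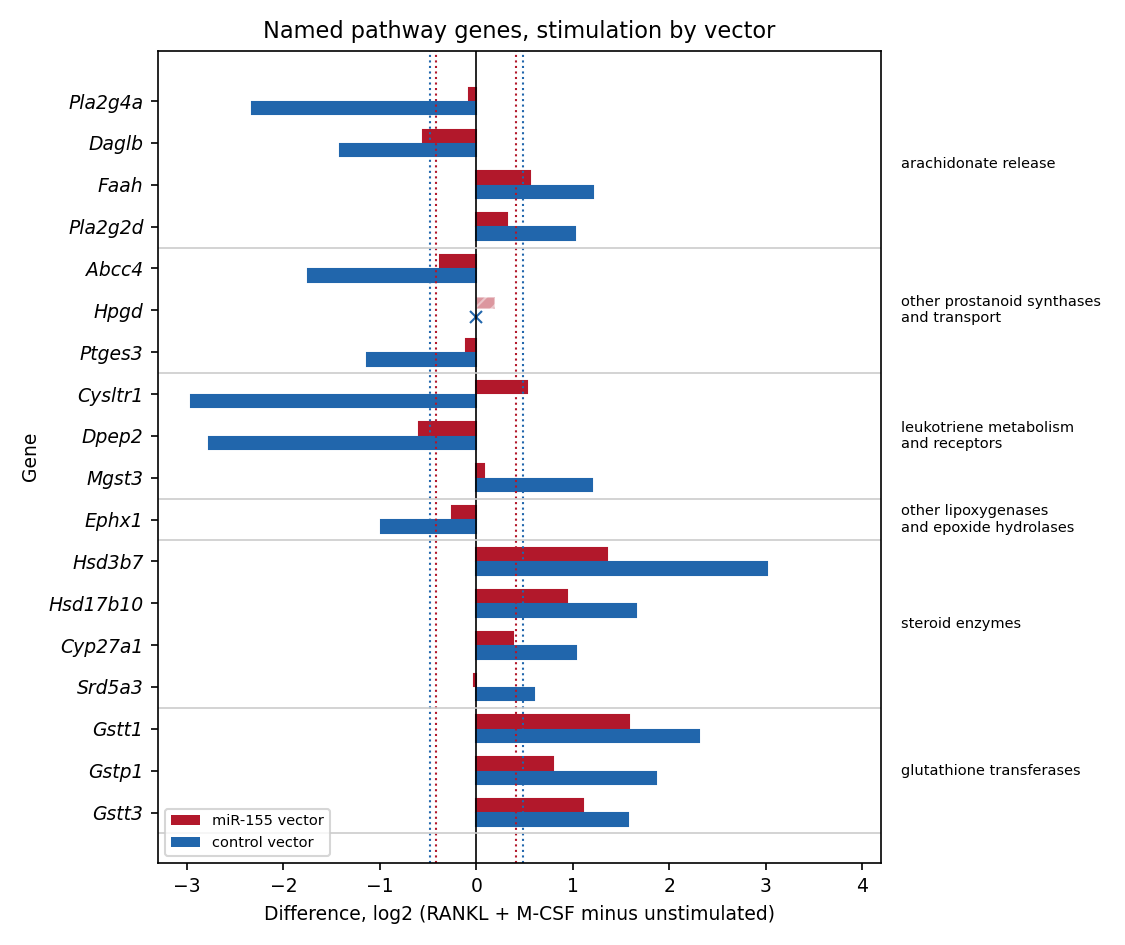
Stimulation differences (log2) in miR-155 cells (red) and control cells (blue) for the pathway genes named by rule, up to 4 per list, with dotted lines at the noise references, hatching for a bound and a cross where both values were below the floor. Pla2g4a, Abcc4, Dpep2 and Cysltr1 run to -1.74 or lower in control cells, and Hsd3b7 reaches 1.35 in miR-155 cells and 3.01 in control cells.

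The genes whose 4 centred log2 values lay nearest to those of the leading genes were found by Euclidean distance over the 4 arrays among 13544 other genes. For Alox5ap they were Cxcl16, a chemokine, at a distance of 0.16, Tnip3, an inhibitor of NF-kB signalling, at 0.19, and the lipopolysaccharide co-receptor Cd14 at 0.23. Cd14 read 10.2 and 10.7 in stimulated and unstimulated miR-155 cells, and 6.52 and 10.6 in stimulated and unstimulated control cells. For Akr1c18 they were Cd200, the ligand of an inhibitory myeloid receptor, at 0.91, Mt3, a metallothionein, at 0.96, and Serpinb1a, a protease inhibitor, at 1.54. For Hpgds they were Fnip2, a folliculin-interacting protein, at 0.80, Gdpd1, a phosphodiesterase, at 0.82, and the immunoglobulin-like receptor Lilr4b at 0.88. With 4 values per gene such likeness is a description of these arrays. None of the 3 neighbours of Hpgds had its size of stimulation difference in miR-155 cells, 1.21: theirs were 0.19, 0.06 and 0.55.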

How the data were processed

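RNA from 1 culture per group was purified on RNeasy columns and 100 ng was labelled for the arrays, per the labels' protocols. The deposited values are log2 probe set values; per the submitters' processing notes, RMA and Partek were used. Tool versions and the genome build were not given in the sources used here. RMA equalizes the arrays' distributions (medians 4.58 to 4.62), which hides any shift in total RNA. Arrays give no read depth, and their number limits the precision.

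GEO's platform table gives 1 symbol to 21789 of 35557 probe sets and several to 1621, which were left out. Each gene was read from its brightest probe set on average. Where 1 value of a pair lay below the floor, the fold is a bound against the floor. Log2 differences between arrays were counted past 2-fold, and with 1 array a group no test was run. The calculations (Python 3.11.15, numpy 2.4.6, pandas 2.3.3) were tested on simulated data. Gene IDs of 21698 probe sets were in the RefSeq table, which changed 0 symbols. All genes and lists were chosen with earlier results of these data known. Besides the listed genes, the text names up to 4 genes per pathway list with the largest difference past 2-fold and the 3 nearest profiles of Akr1c18, Hpgds and Alox5ap. Mast cell markers and Gstm1 were named after their values were seen.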

Additional observations from a re-analysis of the deposited data

Results flagged for a closer look

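Some genes had opposite signs under the same contrast in the 2 vectors or the 2 states, and with 1 array per group none of these differences was tested. Hpgds was higher with stimulation by 1.21 in miR-155 cells and lower in control cells (-1.13), each past its noise reference. Alox5 was 0.80 higher in miR-155 than in control cells with stimulation and -0.37 without, the second value at the limit of the noise. Ptgs2 had 0.28 with stimulation in miR-155 cells and -0.27 in control cells, both inside the noise. Between the vectors, Tbxas1 had 0.45 with stimulation and -0.08 without, and Ptges -0.013 with stimulation and 0.05 without, all inside the noise.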

How the results depend on the processing

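The alternatives were the mean of all probe sets of a gene, arrays centred on their medians, renewed quantile normalization, a floor at the 99th percentile, no filter on low values, values below the floor set to the floor, a 1.5-fold threshold, and, chosen after the data were seen, a running median over genes of like level subtracted from each difference. Of 360 recomputed differences of the 9 genes, 220 could not move, because the alternative does not touch them or each gene has 1 probe set. The floor at the 99th percentile, 5.17, served only to filter genes. The bounds of Akr1c18 stand against the floor of 4.25, and against 5.17 they would be smaller. They were not recomputed. The 3 rescalings moved all 135 they apply to by at most 0.13 (log2) and reversed none past 2-fold; Alox5 and Ltc4s between the vectors without stimulation were -0.33 and -0.30 at the smallest, against a noise reference of 0.37. Akr1c18 moved past the noise with values below the floor set to it: 4.84 for stimulation in control cells, against 5.58 as deposited, and 0 in miR-155 cells, against 0.42. Counts of the 9 genes changed with the 1.5-fold threshold alone, to 2 higher and 1 lower for stimulation in miR-155 cells, 2 higher for miR-155 with stimulation and 2 lower for the difference of the responses. At 1.5-fold, the counts over all genes were 465 higher and 506 lower for stimulation in miR-155 cells (156 and 25 at 2-fold), 1673 and 2053 in control cells (777 and 939), 1673 and 1838 for miR-155 with stimulation (759 and 753), 160 and 426 without (9 and 74), and 1961 and 1885 for the difference of the responses (899 and 629). Of the recomputed counts of the 8 pathway lists, 31 moved by over 1.5 times and 609 did not. Counts of the marker lists were not recomputed. No paired analysis was possible because each group has 1 array. The stimulated control array stood apart, and no comparison that uses it can be made without it.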
